A study of Mus musculus with 12 samples.

Results

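The 10 genes described here are secreted regulators of Wnt signalling and genes known as its targets: Dkk1, Dkk2, Dkk3, Sfrp1, Sfrp2, Wnt5a, Apcdd1, Axin2, Lef1 and Tcf7. They were taken by name from the 55471 genes counted by RNA sequencing of mouse melanoma cell lines, with earlier results of these data known. All 10 had at least 1 count in some library, and 8 passed the filter on low counts, which left 13985 genes for testing. The 4 lines were MeVa2.1.dOVA, MeVa2.1, MeVa2.2.dOVA and MeVa2.2, each labelled wild type in genotype, untreated, and derived from a subcutaneous tumour in skin. Each line had 3 libraries. The labels do not spell out dOVA. The series title calls MeVa2.1.dOVA refractory to immunity, and the lines without dOVA in their name are called the parents of the dOVA lines here. The labels do not say whether a line is 1 clone, or whether its 3 libraries are separate cultures. A p-value here speaks to the spread among those libraries, which may be technical.

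Wnt proteins are secreted, lipid-modified ligands that bind Frizzled receptors with the co-receptors LRP5 and LRP6, or with ROR2 and RYK. In the canonical branch, ligand binding stops the destruction complex built on APC and AXIN from degrading beta-catenin, which then works with the DNA-binding factors TCF and LEF to switch on target genes. Several targets, among them Axin2, Apcdd1 and Dkk genes, code for inhibitors and close a negative feedback loop. In the melanocyte lineage, canonical Wnt signals act through MITF in pigment cell development, while WNT5A is known for signals that do not need beta-catenin and for melanoma cell motility.

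Gene counts per library ranged from 16181816 to 35627069. No pair of libraries of a line agreed within counting noise (lowest chi-square per degree of freedom 27.3). Replicate 2 of MeVa2.2 correlated better with replicate 1 of MeVa2.2.dOVA than with its own line (r = 0.969 against 0.956, across genes on the log2 scale), and replicate 3 of MeVa2.1 correlated better with replicate 3 of MeVa2.1.dOVA than with its own line (r = 0.979 against 0.970). Of 7 melanocyte markers, Mitf averaged 11.8 and 18.9 CPM (counts scaled to a common library total) in MeVa2.1.dOVA and MeVa2.1, and 11.5 and 14.0 CPM in MeVa2.2.dOVA and MeVa2.2. In MeVa2.2, Dct, Tyrp1, Pmel, Mlana, Tyr and Sox10 averaged 6.05, 4.80, 2.73, 1.08, 0.874 and 0.476 CPM. In the same order, these genes averaged 0.216, 0.198, 0.352, 0.018, 0.633 and 0.09 CPM in MeVa2.1. None of them averaged above 0.575 CPM in a dOVA line. Sox10, Mlana, Dct and Tyrp1 were at 0 in some libraries of every line, and the 7 markers summed to between 9.07 and 58.3 CPM. The summed level of 8 fibroblast markers was 1540 to 5785 CPM, most of it Col1a1 and Col1a2. Sums were at most 4.19 CPM for 5 immune markers, 1.24 CPM for 5 endothelial markers and 0.972 CPM for 5 keratinocyte markers, and the T cell gene Cd3e was at 0 in every library. In bulk RNA, fewer cells of a type and less RNA per cell cannot be told apart.

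The Dickkopf proteins DKK1 and DKK2 bind LRP5 and LRP6 and keep Wnt from its co-receptor, whereas DKK3 is a more distant relative that does not share this mode of inhibition. Dkk2 (chr3:132085292-132180304, plus strand, GRCm38) was the most abundant of the 10 genes per transcript length in all 4 lines. Its mean level was 97.4 and 160 RPKM, the CPM divided by exon length in kilobases, in MeVa2.1.dOVA and MeVa2.1, and 6.69 and 105 RPKM in MeVa2.2.dOVA and MeVa2.2. Dkk1 (chr19:30545863-30549665, minus strand) had a single count in all 12 libraries together, in replicate 3 of MeVa2.1. The 250 bases before the RefSeq start sites of these related genes, together with those of the feedback target Axin2, are shown because the inhibitors lie at opposite ends of the range of levels. They are read 5′ to 3′ on the gene's strand from RefSeq on GRCm38.p6, at chr19:30549497-30549746 for Dkk1, chr3:132085042-132085291 for Dkk2 and chr11:108920099-108920348 for Axin2. Capitals mark 7-letter words that TCF and LEF proteins are known to recognise. The first searched was CTTTGAA. A second word was CTTTGAT. Another was CTTTGTA. The last word was CTTTGTT.
Dkk1: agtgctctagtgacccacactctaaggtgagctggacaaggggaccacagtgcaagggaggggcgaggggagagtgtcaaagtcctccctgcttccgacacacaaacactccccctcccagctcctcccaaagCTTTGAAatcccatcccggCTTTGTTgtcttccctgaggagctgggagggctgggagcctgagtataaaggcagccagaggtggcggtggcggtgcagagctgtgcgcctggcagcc
Dkk2: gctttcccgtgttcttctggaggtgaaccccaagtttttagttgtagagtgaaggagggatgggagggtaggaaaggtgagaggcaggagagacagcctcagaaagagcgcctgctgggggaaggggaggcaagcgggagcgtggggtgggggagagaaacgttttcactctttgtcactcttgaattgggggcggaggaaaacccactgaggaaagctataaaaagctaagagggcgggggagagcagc
Axin2: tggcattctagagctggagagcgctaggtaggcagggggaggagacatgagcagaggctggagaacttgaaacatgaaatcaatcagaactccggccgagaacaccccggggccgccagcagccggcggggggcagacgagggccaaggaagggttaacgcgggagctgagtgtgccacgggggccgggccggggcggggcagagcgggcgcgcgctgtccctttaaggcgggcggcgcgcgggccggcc
Words were searched on both strands. The 4 words share their first letters and cannot start at the same base on the same strand, and no marked words overlap. Dkk1, the nearly silent gene, held CTTTGAA 117 bases and CTTTGTT 98 bases before its RefSeq start site, and the Dkk2 and Axin2 windows held none of the 4 words. The windows were not placed alike. The gene span given above for Dkk1 reaches to 30549665, within its window, and both words lie inside that span. The Dkk2 and Axin2 windows end just before their gene spans. Of 32851 mouse promoters of the same length, 4874 (14.8%) held at least 1 word. RefSeq promoters matched 6 of the 10 genes with 10 start sites, and the other start site with a word was the fourth of Lef1, with TACAAAG, the reverse complement of CTTTGTA, 147 bases before it. A word is a match of letters, and binding was not measured.

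**Figure D1:**
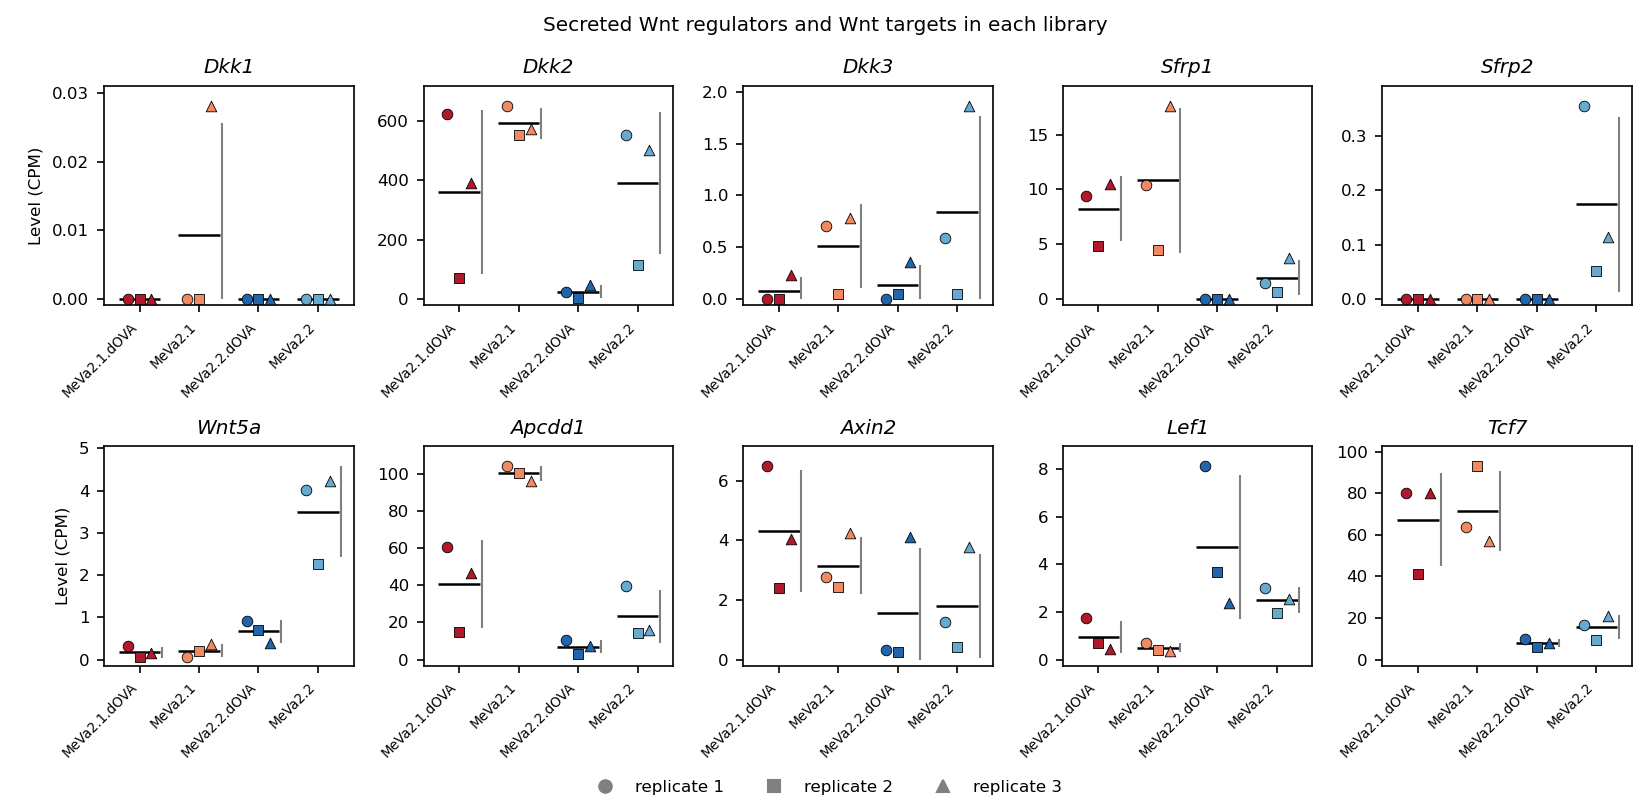
Level of each of the 10 genes in every library (y axis, CPM, starting at 0, a separate scale per gene) for MeVa2.1.dOVA, MeVa2.1, MeVa2.2.dOVA and MeVa2.2 (x axis). Marker shapes give the replicate number, horizontal bars the mean and grey vertical bars 1 SD either side of it, stopped at 0; the MeVa2.2.dOVA libraries lie at or below 47.3 CPM for Dkk2 and at 0 for Sfrp1.

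Within the MeVa2.2 pair, Dkk2 and Sfrp1 fell in the dOVA line. Dkk2 had 22.6, 4.48 and 47.3 CPM in the MeVa2.2.dOVA libraries, against 553, 117 and 502 CPM in the MeVa2.2 libraries. Every MeVa2.2.dOVA library was below every MeVa2.2 library, although the lowest parental library, replicate 2, was well below the other two. The log2 fold change was -4.03 (SE 0.90, adjusted p = 0.0472, edgeR quasi-likelihood test, with Benjamini-Hochberg adjustment across the whole table of 13985 genes). Sfrp1, which codes for a secreted decoy with a Frizzled-like domain that binds Wnt, was at 0 in all 3 MeVa2.2.dOVA libraries, against 1.48, 0.685 and 3.73 CPM (25, 13 and 98 counts) in the MeVa2.2 libraries. With a floor of 3 counts over the dOVA libraries together, which covers counting error only, Sfrp1 (chr8:23411502-23449632, plus strand) was at least 51.8-fold lower in MeVa2.2.dOVA (adjusted p = 0.0179, edgeR).

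These were 2 of the 8 tested members, both lower; 1.99% of all tested genes were called in this comparison and 1.57% were called lower. Libraries did not overlap for 4 members, all lower in MeVa2.2.dOVA (Dkk2, Sfrp1, Wnt5a and Apcdd1), where 7.49% of all tested genes were lower without overlap. The Dkk2 call was narrow. Its adjusted p was 0.0712, 0.0709 and 0.0672 without replicates 1, 2 and 3 of MeVa2.1, 0.0613 and 0.0764 without replicates 1 and 3 of MeVa2.1.dOVA, 0.163 and 0.145 without replicates 1 and 2 of MeVa2.2.dOVA, and 0.126 and 0.13 without replicates 1 and 3 of MeVa2.2. It was 0.0278 without replicate 2 of MeVa2.2. The Sfrp1 call was lost without replicate 1 or replicate 2 of MeVa2.2.dOVA (adjusted p = 0.0517 and 0.0802) and stood at 0.0117 without replicate 2 of MeVa2.2. Fitted on the 2 lines of this pair alone, neither was called (adjusted p = 0.146 for Dkk2 and 0.106 for Sfrp1). Beside these falls, 3 of the 8 fibroblast markers, Dcn, Pdgfra and Thy1, were also lower in MeVa2.2.dOVA (log2 fold changes -2.49, -2.61 and -6.49, adjusted p = 0.0178, 0.0483 and 0.0178, edgeR). All 8 fibroblast markers had a log2 fold change below 0 (median -2.26, 4 called by DESeq2), beside a median of -2.10 over the 8 tested members. The summed fibroblast markers, most of which is Col1a1 and Col1a2, were 1540 to 5019 CPM in MeVa2.2.dOVA and 2774 to 5785 CPM in MeVa2.2. All 5 tested melanocyte markers also had a log2 fold change below 0 (median -3.38; 0 called by edgeR, 3 at an unadjusted p under 0.05, 1 by DESeq2). The sum over 7 melanocyte markers was 9.07 to 16.6 CPM in MeVa2.2.dOVA, most of it Mitf, and 10.5 to 58.3 CPM in MeVa2.2. In MeVa2.2 Mitf was at most 17.5 CPM, and Dct and Tyrp1 reached 15.9 and 12.3 CPM. In MeVa2.2.dOVA Dct and Tyrp1 were at most 0.755 and 0.863 CPM. The part of these markers in the result was not tested.

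The other members of the MeVa2.2 pair did not pass the test. Wnt5a, the non-canonical ligand (chr14:28504750-28527448, plus strand), had 0.917, 0.693 and 0.386 CPM in MeVa2.2.dOVA, against 4.02, 2.26 and 4.22 CPM in MeVa2.2. The groups did not overlap, and the log2 fold change of -2.42 (SE 0.59) had an adjusted p of 0.0637 with edgeR and 0.00262 with DESeq2; without replicate 2 of MeVa2.2 the edgeR value was 0.0481. Apcdd1, which codes for a membrane-bound inhibitor that binds Wnt and LRP5 and is itself a known target, lies on chromosome 18 (62922231 to 62961179, plus strand). It had 10.5, 3.15 and 7.15 CPM in MeVa2.2.dOVA, against 39.5, 14.2 and 16.0 CPM in MeVa2.2. These groups did not overlap either, and the log2 fold change was -1.77 (SE 0.54, adjusted p = 0.129 with edgeR and 0.0212 with DESeq2).

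Tcf7, which codes for TCF1, a DNA-binding partner of beta-catenin (chr11:52252371-52283014, minus strand), had 9.98, 6.19 and 7.87 CPM in MeVa2.2.dOVA, against 16.5, 9.64 and 20.8 CPM in MeVa2.2. Replicate 1 of the dOVA line lay just above replicate 2 of the parent, so the groups overlapped (log2 fold change -0.99, SE 0.34, adjusted p = 0.17). Lef1, which codes for another such partner (chr3:131110471-131224356, plus strand), had 8.14, 3.68 and 2.38 CPM in MeVa2.2.dOVA, against 3.02, 1.95 and 2.55 CPM in MeVa2.2, with overlap (log2 fold change 0.89, SE 0.55, adjusted p = 0.44). Axin2, which codes for a scaffold of the destruction complex and is widely read as a sign of canonical signalling (chr11:108920349-108950783, plus strand), had 0.324, 0.267 and 4.10 CPM in MeVa2.2.dOVA, against 1.24, 0.421 and 3.77 CPM in MeVa2.2. Replicate 3 was the highest library in both lines, and the spread within each was larger than the difference between them (log2 fold change -0.26, SE 0.93, adjusted p = 0.911). Without replicate 3 of MeVa2.2.dOVA the Axin2 fold change was -2.61 on the log2 scale, and without replicate 3 of MeVa2.2 it was 0.92, neither past the threshold.

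Dkk3 and Sfrp2 were near the limit of detection. Dkk3 (chr7:112116017-112159057, minus strand) had 0, 0.0533 and 0.356 CPM in MeVa2.2.dOVA, against 0.592, 0.0527 and 1.86 CPM in MeVa2.2 (log2 fold change -2.45, SE 1.3, adjusted p = 0.375). It had 0, 0 and 0.230 CPM in MeVa2.1.dOVA and 0.702, 0.0521 and 0.786 CPM in MeVa2.1 (log2 fold change -2.33, SE 1.39, adjusted p = 0.583). Libraries overlapped in both pairs. Sfrp2, a relative of Sfrp1 (chr3:83766321-83774316, plus strand), was counted in MeVa2.2 alone, with 6, 1 and 3 counts, and was at 0 in the other 9 libraries. Against the floor of 3 counts, Sfrp2 was at least 3.81-fold lower in the dOVA line of that pair, and without the filter on low counts its adjusted p there was 0.169 (edgeR). Sfrp2 and Dkk1 did not pass the filter, and without it neither was called in any comparison.

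In the MeVa2.1 pair no member passed the test. Among the 8 tested, 0 were called by edgeR and 0 by DESeq2, and 1 had an unadjusted p under 0.05. Of all tested genes, 0.486% were called by edgeR, 2.82% by DESeq2, and 11.2% had an unadjusted p under 0.05. Dkk2 had 621, 71.0 and 391 CPM in MeVa2.1.dOVA, against 649.9, 552 and 572 CPM in MeVa2.1. Replicate 2 of the dOVA line was the low library and replicate 1 lay within the parental range (log2 fold change -0.74, SE 0.80, adjusted p = 0.79). Sfrp1 had 9.39, 4.88 and 10.5 CPM in MeVa2.1.dOVA, against 10.4, 4.48 and 17.6 CPM in MeVa2.1, with full overlap (log2 fold change -0.39, SE 0.62, adjusted p = 0.864).

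Apcdd1 was the gene with the unadjusted p under 0.05. It had 60.6, 14.6 and 46.5 CPM in MeVa2.1.dOVA, against 104, 101 and 96.3 CPM in MeVa2.1. The parental libraries lay close together and all dOVA libraries were below them, as was the case for 10.4% of all tested genes. The log2 fold change was -1.33 (SE 0.53, unadjusted p = 0.0275, adjusted p = 0.377). Tcf7 had 80.3, 41.4 and 80.1 CPM in MeVa2.1.dOVA, against 64.0, 93.5 and 56.9 CPM in MeVa2.1 (log2 fold change -0.11, SE 0.33, adjusted p = 0.935). The Tcf7 estimate turned to 0.15 without replicate 2 of MeVa2.1.dOVA, and the groups overlapped. Axin2 had 6.49, 2.41 and 4.06 CPM in MeVa2.1.dOVA and 2.75, 2.45 and 4.24 CPM in MeVa2.1 (log2 fold change 0.44, SE 0.91, adjusted p = 0.904). Lef1 had 1.73, 0.689 and 0.461 CPM in MeVa2.1.dOVA and 0.702, 0.417 and 0.365 CPM in MeVa2.1 (log2 fold change 0.92, SE 0.60, adjusted p = 0.626). Wnt5a, with 0.309, 0.0574 and 0.144 CPM in MeVa2.1.dOVA and 0.0540, 0.208 and 0.365 CPM in MeVa2.1, was close to the detection limit in both (log2 fold change -0.42, SE 0.71, adjusted p = 0.871). All of these overlapped.

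Whether the dOVA difference itself differed between origins was tested as the MeVa2.1 pair's log2 fold change minus that of the MeVa2.2 pair. No member passed (0 of 8 with edgeR, 2 at an unadjusted p under 0.05, 1 with DESeq2), where the shares of all tested genes were 0.0858%, 8.49% and 1.94% in the same order. The difference for Dkk2 was 3.29 (SE 1.16, adjusted p = 0.401). For Sfrp1, which has a group at 0, the fitted size depends on the prior count and is not given; its adjusted p was 0.101 with edgeR, 1.54e-04 with DESeq2, 0.00869 with the replicate block in edgeR and 0.00163 in edgeR without the filter on low counts. Whether the Sfrp1 difference differed between the pairs thus depended on the fit, and for Dkk2 no such call was made.

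**Figure D2:**
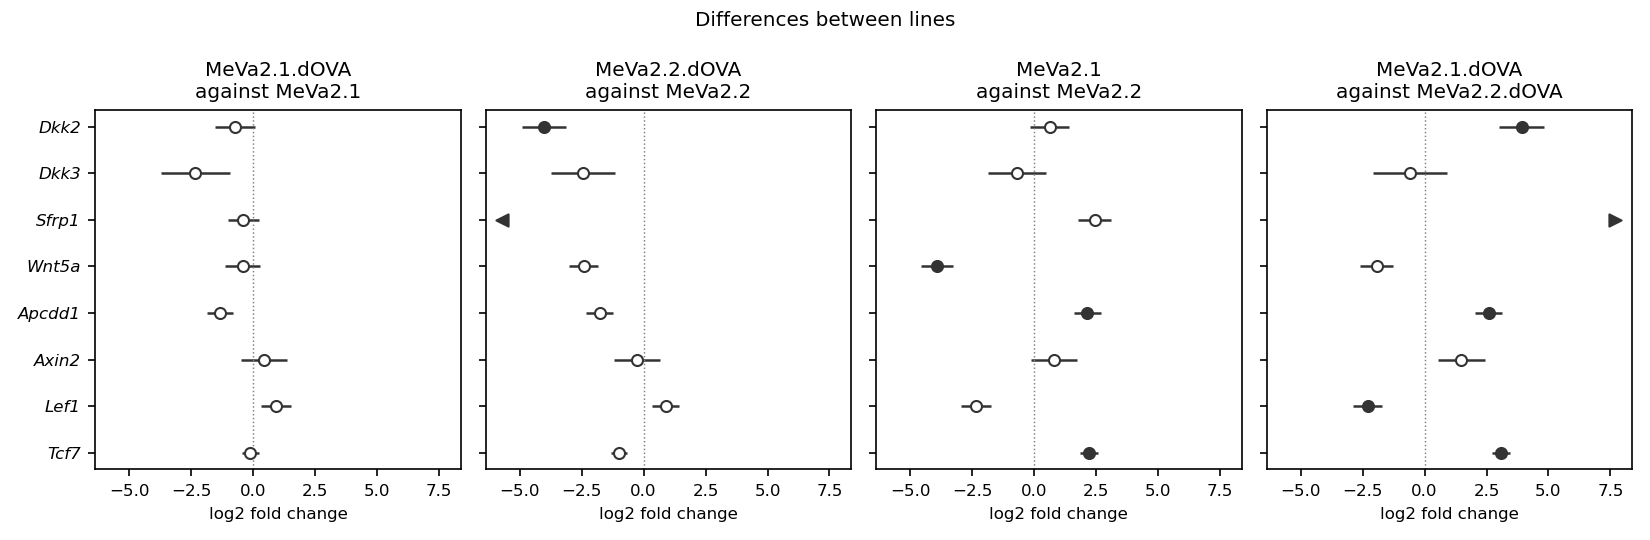
log2 fold change (x axis) of the 8 tested genes (y axis) in the 4 comparisons between lines, with the first-named line over the second. Circles are fitted values with bars of 1 SE, triangles are bounds for Sfrp1 against a line at 0, and filled marks have an adjusted p under 0.05 in edgeR; Tcf7 and Apcdd1 are filled in both right-hand panels.

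More members were called between lines of different origin than within a pair, as was a larger share of all tested genes. That share was 0.486% and 1.99% in the MeVa2.1 and MeVa2.2 pairs. It was 4.48% between the parents and 11.3% between the dOVA lines. Between the parents, Wnt5a was lower, and Tcf7 and Apcdd1 were higher, in MeVa2.1: 3 of the 8 tested members, where 4.48% of all tested genes were called, 2.82% higher and 1.66% lower. From the per-library values above, no MeVa2.1 library reached the MeVa2.2 range for Wnt5a (log2 fold change -3.94, SE 0.65, adjusted p = 0.00558). Tcf7 averaged 71.5 ± 19.4 CPM in MeVa2.1 and 15.6 ± 5.65 CPM in MeVa2.2 (SD, n = 3 libraries each), with a log2 fold change of 2.22 (SE 0.35, adjusted p = 0.00431, edgeR). Wnt5a and Tcf7 kept their calls without each of the 12 libraries in turn; with the 4 libraries numbered 2 left out together, Wnt5a had an adjusted p of 0.0596 and Tcf7 of 0.0176. Apcdd1 averaged 100.4 ± 3.95 CPM in MeVa2.1 and 23.2 ± 14.1 CPM in MeVa2.2 (SD, n = 3 libraries each), with a log2 fold change of 2.14 (SE 0.54, adjusted p = 0.048, edgeR).

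The Apcdd1 call between the parents was lost when most single libraries were left out: adjusted p = 0.116, 0.137 and 0.0865 without replicates 1, 2 and 3 of MeVa2.1, 0.0552 and 0.0713 without replicates 1 and 3 of MeVa2.1.dOVA, 0.16 and 0.132 without replicates 2 and 3 of MeVa2.2, and 0.0554 and 0.0574 without replicates 1 and 3 of MeVa2.2.dOVA. Lef1 missed the threshold (log2 fold change -2.33, SE 0.60, adjusted p = 0.051) although no libraries overlapped. It was past it without replicate 1 of MeVa2.1.dOVA (0.0392), replicate 1 of MeVa2.2.dOVA (0.0445) or replicate 3 of MeVa2.2.dOVA (0.0356). Sfrp1 did not overlap either and was higher in every MeVa2.1 library (log2 fold change 2.45, SE 0.66, adjusted p = 0.0759); without replicate 3 of MeVa2.2 the value was 0.0385. With the replicate number as a block, 5 members were called in place of 3, since Sfrp1 (adjusted p = 0.00246) and Lef1 (adjusted p = 0.00426) joined, while 9.51% of all tested genes were called with it. Dkk2 (log2 fold change 0.63, SE 0.80, adjusted p = 0.766), Axin2 (0.80, SE 0.93, adjusted p = 0.739) and Dkk3 (-0.70, SE 1.18, adjusted p = 0.838) overlapped between the parents. Without replicate 2 of MeVa2.2, the Dkk2 estimate was 0.19. Beside these differences, the summed melanocyte markers were 14.7 to 26.6 CPM in MeVa2.1 and 10.5 to 58.3 CPM in MeVa2.2. The summed fibroblast markers were 1653 to 3123 CPM in MeVa2.1 and 2774 to 5785 CPM in MeVa2.2. Of the 5 tested melanocyte markers, 4 had a log2 fold change below 0 and 1 above (median -2.91). Of these 5, 0 were called by edgeR, 3 had an unadjusted p under 0.05, 1 was called by DESeq2 and 3 with the replicate block. Over all 13985 tested genes, 2462 had an unadjusted p under 0.05, 1207 were called by DESeq2 and 1330 with the block. The part of these markers was not tested.

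Between the dOVA lines, Dkk2, Sfrp1, Tcf7 and Apcdd1 were higher and Lef1 was lower in MeVa2.1.dOVA, which is 5 of the 8 tested members; 11.3% of all tested genes were called, 6.45% higher and 4.81% lower. Sfrp1 was at least 208-fold higher, with 602 counts over the 3 MeVa2.1.dOVA libraries and 0 over the 3 MeVa2.2.dOVA libraries (adjusted p = 0.000789, edgeR). Tcf7 averaged 67.3 ± 22.4 CPM in MeVa2.1.dOVA and 8.01 ± 1.90 CPM in MeVa2.2.dOVA (SD, n = 3 libraries each), with a log2 fold change of 3.10 (SE 0.36, adjusted p = 0.000353, edgeR). Calls of Sfrp1 and Tcf7 held without each of the 12 libraries in turn. Dkk2 had a log2 fold change of 3.92 (SE 0.90, adjusted p = 0.0169), with adjusted p = 0.0617 without replicate 1 of MeVa2.1.dOVA and 0.0755 without replicate 1 of MeVa2.2.dOVA, and 0.0536 when these 2 lines were fitted alone. The lowest MeVa2.1.dOVA library for Dkk2 (71.0 CPM) was above the highest MeVa2.2.dOVA library (47.3 CPM).

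Apcdd1 averaged 40.6 ± 23.6 CPM in MeVa2.1.dOVA and 6.94 ± 3.69 CPM in MeVa2.2.dOVA (SD, n = 3 libraries each), with a log2 fold change of 2.58 (SE 0.56, adjusted p = 0.0127, edgeR). Without replicate 1 of MeVa2.1.dOVA its adjusted p was 0.0525, and without replicate 2 of MeVa2.2.dOVA 0.0538. Lef1 went the other way from Tcf7, with a log2 fold change of -2.30 (SE 0.58, adjusted p = 0.0266). No Lef1 libraries overlapped, and its adjusted p was 0.0779 and 0.0937 without replicates 2 and 3 of MeVa2.1.dOVA, and 0.121 and 0.054 without replicates 1 and 2 of MeVa2.2.dOVA. Fitted on these 2 lines alone, Lef1 had 0.0868. Wnt5a had a log2 fold change of -1.93 (SE 0.67, adjusted p = 0.0905), 0.0462 with DESeq2, and 0.0493 in edgeR without replicate 3 of MeVa2.2.dOVA. Axin2 had a log2 fold change of 1.49 (SE 0.93, adjusted p = 0.331), and without replicate 3 of MeVa2.2.dOVA, the high library of that line, it was 3.84 (adjusted p = 0.0171). Dkk3 had a log2 fold change of -0.58 (SE 1.5, adjusted p = 0.836). The summed melanocyte markers overlapped between these lines (9.71 to 17.1 CPM in MeVa2.1.dOVA and 9.07 to 16.6 CPM in MeVa2.2.dOVA), as did the fibroblast markers (2022 to 3852 CPM in MeVa2.1.dOVA and 1540 to 5019 CPM in MeVa2.2.dOVA).

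In the order of levels, Dkk2 stood first in every line by RPKM. Tcf7 came next, at 25.6 RPKM in MeVa2.1.dOVA, 27.2 in MeVa2.1, 3.05 in MeVa2.2.dOVA and 5.96 in MeVa2.2, and Apcdd1 followed at 3.15, 7.79, 0.539 and 1.80 RPKM in the same lines. Library values of Dkk2 and Tcf7 overlapped on this scale in both dOVA lines and not in the parents, and those of Tcf7 and Apcdd1 overlapped in no line. Sfrp1 came after them in the MeVa2.1 lines, at 1.89 RPKM in MeVa2.1.dOVA and 2.48 RPKM in MeVa2.1, and Axin2 came after Sfrp1, at 0.785 RPKM in MeVa2.1.dOVA and 0.571 RPKM in MeVa2.1. In MeVa2.2.dOVA, Lef1 was level with Apcdd1 (0.539 RPKM) and their libraries overlapped. In MeVa2.2, Sfrp1, Wnt5a, Axin2, Lef1 and Dkk3 lay close together below Apcdd1, at 0.449, 0.448, 0.329, 0.285 and 0.249 RPKM. The library-to-library range was wide for Dkk2: its highest library was 8.75 times its lowest in MeVa2.1.dOVA, 1.18 times in MeVa2.1, 10.6 times in MeVa2.2.dOVA and 4.74 times in MeVa2.2. The library numbered 2 was the lowest of the 3 in all 4 lines for Dkk2 and Axin2, as it was for 14.1% of all tested genes. It was the lowest in 3 of the 4 lines for Sfrp1, Tcf7 and Apcdd1. With the 4 libraries numbered 2 left out, Dkk2 and Sfrp1 had adjusted p = 0.021 and 0.0452 in the MeVa2.2 pair, and Dkk2, Sfrp1, Tcf7 and Apcdd1 had 0.00258, 0.00337, 0.00133 and 0.0173 between the dOVA lines, while Lef1 had 0.168.

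The rest of the pathway was read from 8 lists with 106 genes, of which 96 were not among the 10; 62 of those 96 were tested. In the MeVa2.1 pair 1 of the 62 (1.61%, beside 0.486% of all tested genes) was called, lower: the Wnt co-receptor gene Lrp5, with 5.38, 4.88 and 5.61 CPM in MeVa2.1.dOVA, against 18.5, 16.0 and 17.5 CPM in MeVa2.1. The groups were far apart (log2 fold change -1.72, SE 0.28, adjusted p = 0.0285), although the adjusted p rose to as much as 0.157 when single libraries were left out. With the replicate block, 4 of the 62 were called, beside 2.6% of all tested genes: Lrp5 (adjusted p = 0.00824), the ligand gene Wnt5b (0.0406), the R-spondin receptor gene Lgr6 (0.0439) and the decoy gene Frzb (0.0154). In the same pair 6 of 8 fibroblast markers had a log2 fold change below 0 (list median -1.71), and 1, Dcn, was called (-2.32, adjusted p = 0.0328), while 3 were called by DESeq2; their part was not tested. In the MeVa2.2 pair 2 of the 62 (3.23%, beside 1.99% of all tested genes) were called by the main edgeR fit, both lower. In that fit alone the share was near that of all tested genes. Ror2, a receptor for WNT5A, had 3 counts in MeVa2.2.dOVA, against 43 counts in MeVa2.2, a ratio of 16.4 (exact 95% counting interval 5.24 to 82.4, counting error only) with an adjusted p of 0.0473. Nkd2, a feedback inhibitor that acts on Dishevelled, had 0.216, 0.0534 and 0.0594 CPM in MeVa2.2.dOVA, against 1.60, 0.790 and 2.40 CPM in MeVa2.2 (log2 fold change -3.94, SE 0.90, adjusted p = 0.0495). Without single libraries the adjusted p reached 0.17 for Ror2 and 0.192 for Nkd2. Of the 62 in this pair, 16 had an unadjusted p under 0.05, 9 were called by DESeq2 and 10 with the replicate block. The counts over all 13985 tested genes were 2298, 974 and 1084 in the same order.

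Between the parents 4 of the 62 (6.45%, near the 4.48% of all tested genes) were called, all higher in MeVa2.1: Ror2 (log2 fold change 4.08, SE 0.63, adjusted p = 0.0039), Nkd2 (3.22, SE 0.70, adjusted p = 0.0247), Trabd2b, the gene of a protease that inactivates Wnt (3.44, SE 0.77, adjusted p = 0.0377), and Porcn, whose product attaches the lipid to Wnt (2.04, SE 0.42, adjusted p = 0.0204). Ror2 kept its call without each library in turn, and the other 3 did not (adjusted p up to 0.0924 for Nkd2, 0.118 for Trabd2b and 0.0826 for Porcn). With the replicate block 9 of the 62 were called between the parents, beside 9.51% of all tested genes. Wnt5a and its receptor gene Ror2 lay in opposite directions between the parents. Ror2 had 13.3, 10.4 and 10.9 CPM in MeVa2.1, against 0.888, 0.369 and 0.799 CPM in MeVa2.2.

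Between the dOVA lines 12 of the 62 were called (19.4%, beside 11.3% of all tested genes), 8 higher and 4 lower in MeVa2.1.dOVA, and 18 with the replicate block, beside 22% of all tested genes. Among inhibitors, Sfrp4 had 11.9, 0.861 and 3.31 CPM in MeVa2.1.dOVA, against 0.0539, 0 and 0 CPM in MeVa2.2.dOVA, or 322 counts to 1 (ratio 334, exact 95% counting interval 59.6 to 13300, adjusted p = 0.00752, edgeR). Notum, which codes for an enzyme that strips the lipid from Wnt, had a log2 fold change of 4.71 (SE 0.98, adjusted p = 0.0106), and Trabd2b was at least 30.1-fold higher (adjusted p = 0.00495, edgeR). Together with Dkk2, Sfrp1 and Apcdd1, these made 6 of the 9 tested secreted and membrane antagonists called higher. The other 3 had log2 fold changes below 0 and were not called (0 called lower by edgeR or DESeq2), and the list had a median log2 fold change of 3.92, against a median of 0.01 over all tested genes. In the MeVa2.2 pair the same list held 2 called lower by edgeR (median -2.57), beside 1.57% of all tested genes. There 7 of the 9 had an unadjusted p under 0.05, 7 were called by DESeq2 and 5 with the replicate block. The counts over all 13985 tested genes were 2298, 974 and 1084 in the same order. Between the parents 2 were called higher by edgeR (median 2.14), beside 2.82% of all tested genes. In the MeVa2.1 pair 0 were called by edgeR (median -0.74), beside 0.486%. There 3 had an unadjusted p under 0.05, 1 was called by DESeq2 and 1 with the replicate block, beside 11.2%, 2.82% and 2.6%. The medians over all tested genes in those comparisons were -0.02, -0.02 and 0.00.

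**Figure D3:**
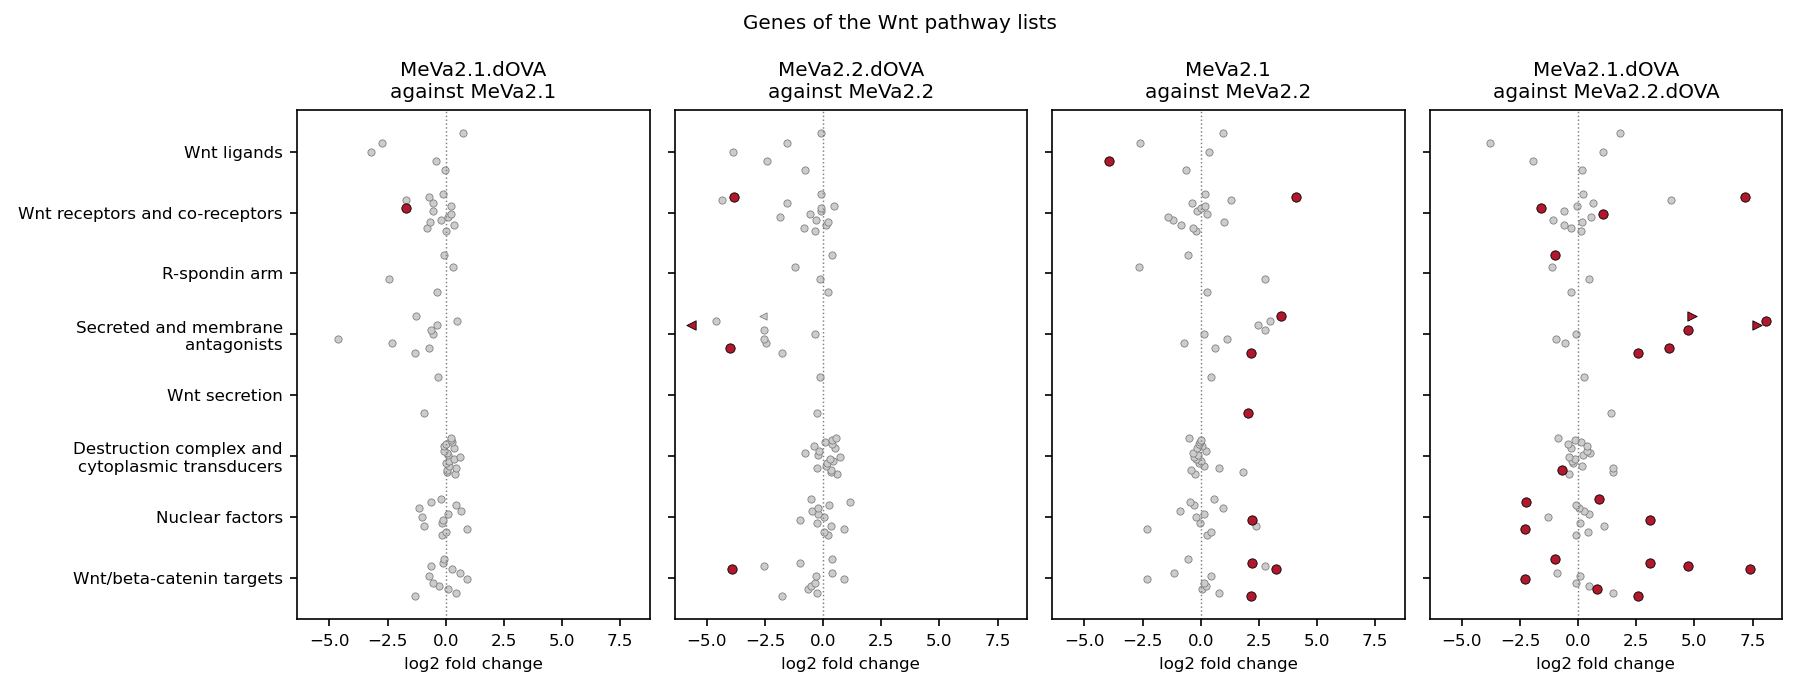
log2 fold change (x axis) of each tested gene of the 8 Wnt pathway lists (y axis) in the 4 comparisons, with the first-named line over the second; the 10 genes are included where a list holds them, and a gene on 2 lists is drawn in both. Red marks have an adjusted p under 0.05 in edgeR, grey marks do not, and triangles are bounds against a line at 0; between the dOVA lines the antagonist row holds 6 red marks, all to the right of 0.

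Among receptors between the dOVA lines, Ror2 had 492 counts in MeVa2.1.dOVA and 3 in MeVa2.2.dOVA (ratio 170, exact 95% counting interval 57.9 to 829, adjusted p = 0.00032), and Fzd7 was higher (log2 fold change 1.06, SE 0.23, adjusted p = 0.0125). Lrp5 was lower in MeVa2.1.dOVA (-1.61, SE 0.28, adjusted p = 0.00418). Further genes that were higher in MeVa2.1.dOVA were Nkd2 (7.41, SE 0.92), the cyclin D1 gene Ccnd1 (0.83, SE 0.18) and Tle5, the gene of a short Groucho-family protein (0.91, SE 0.22). Lower ones were Tle4, a Groucho-family co-repressor gene (-2.26, SE 0.50), Znrf3, whose product removes Frizzled receptors from the membrane (-1.01, SE 0.27), and the scaffold gene Axin1 (-0.71, SE 0.18). Adjusted p-values of these 6 in edgeR lay between 0.000511 and 0.034. Leaving out single libraries ended the calls of Fzd7, Znrf3, Axin1, Tle4, Tle5 and Ccnd1 (adjusted p up to 0.142), while Lrp5, Ror2, Sfrp4, Notum, Trabd2b and Nkd2 kept theirs. In the test of the difference between pairs, 0 of the 62 were called by edgeR (10 at an unadjusted p under 0.05, 2 by DESeq2). The shares of all tested genes were 0.0858%, 8.49% and 1.94% in the same order.

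The genes with the highest mean level of each list were present in all 4 lines, and values of only some of them are given here. Ctnnb1, the beta-catenin gene, averaged 656.7 ± 39.8 CPM in MeVa2.1.dOVA and 611 ± 91.6 CPM in MeVa2.1, and 587 ± 154 CPM in MeVa2.2.dOVA and 666 ± 98.0 CPM in MeVa2.2 (SD, n = 3 libraries each), with no call in any comparison. The co-receptor gene Lrp6 averaged 152 and 129 CPM in MeVa2.1.dOVA and MeVa2.1, and 162 and 116 CPM in MeVa2.2.dOVA and MeVa2.2. Ccnd1 averaged 1568 and 1455 CPM in MeVa2.1.dOVA and MeVa2.1, and 904 and 1401 CPM in MeVa2.2.dOVA and MeVa2.2. Ligands were scarce: only 5 of 19 Wnt genes passed the filter, and the most abundant, Wnt10b and Wnt9a, averaged at most 6.70 and 5.84 CPM in any line.

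Likeness of pattern was measured as the root mean square difference of centred log2 CPM over the 12 libraries, which share their depth and line structure. The closest genes to Dkk2 were Hspb7 (0.65), Rab3b (0.75) and Mgst3 (0.83), where the log2 SD of Dkk2 itself was 2.35. To Sfrp1 they were B3galnt1 (0.47), Tspan11 (0.61) and Sirpa (0.79), with an SD of 2.92. To Axin2 they were Serpinb8 (0.32), Iqgap3 (0.47) and Sertad4 (0.49), to Tcf7 Aplp2 (0.34), Shc2 (0.40) and Ust (0.41), and to Apcdd1 Paqr7 (0.44), Maob (0.45) and Lgi4 (0.48). For the low-count genes, the closest were Meox2, Crhr1 and Col4a3 to Wnt5a, Chrnb1, Rhod and Mob3b to Lef1, and Add2, Fbxo16 and Izumo4 to Dkk3, with differences of 0.57 to 0.73.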

How the data were processed

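RNA of 12 libraries (4 lines, 3 each) was made into strand-specific poly(A) libraries, per the labels' protocols. The authors deposited whole-number counts per Ensembl gene for each library; the submitters' processing notes name STAR 2.6.0c, HTSeq 0.10.0, DESeq2 1.30.1 and GRCm38. The strand setting of the counting is not given in the sources used here. Whether overlapping antisense genes affected the counts of Axin2, Lef1, Sfrp2, Tcf7 and Wnt5a is therefore not known. Lef1 and Tcf7 also overlap a gene on the same strand (Gm42449 and Gm26551). The 5 tally lines of each file, which held 35.8% to 40.0% of a file's total, were left out. Symbols, positions and exon lengths came from GENCODE M21.

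Counts were tested in R 4.3.3 with edgeR 4.0.16 (filterByExpr, TMM factors of 0.953 to 1.068, quasi-likelihood fit over all 12 libraries, 8 residual degrees of freedom, Benjamini-Hochberg adjustment at 0.05). SE is the value implied by the F statistic. CPM and RPKM use gene totals. Bounds against a line at 0 use a floor of 3 counts over its libraries, and intervals are exact at 95%. The procedure was tested on simulated counts with the same spread setting for every gene. Same-numbered libraries did not deviate together in that simulation, so it does not cover this feature of the data. The named genes are the 10, list genes that passed the test, and the 3 genes most alike to each tested member. Of the 2 most abundant genes of each list, only some are named. Wnt5b and Lgr6 are named for calls with the replicate block, and Frzb and Wnt16 after their values were seen. Genes and lists were chosen with earlier results of these data known. Marker genes are named to check the labels; 1 gene of the marker lists is not reported here.

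Deviations of same-numbered libraries from their line means correlated at r = 0.488 to 0.534 in the MeVa2.1 pair. The range was 0.328 to 0.429 between parents and 0.105 to 0.516 between dOVA lines. In the MeVa2.2 pair r was 0.082, 0.64 and 0.521 for replicates 1, 2 and 3. Differently numbered libraries were not compared in this way, so whether the numbers pair the libraries was not tested. Alternatives were DESeq2 1.42.0, DESeq2 size factors in edgeR, no filter, 2 lines only, the replicate block, each library left out and, added after seeing the data, the 4 libraries numbered 2 left out.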

Additional observations from a re-analysis of the deposited data

How the results depend on the processing

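Genes called in the MeVa2.1 pair, the MeVa2.2 pair, between parents, between dOVA lines and for the difference of differences were 68, 278, 627, 1574 and 12. They were 394, 974, 1207, 2428 and 272 with DESeq2, and 272, 729, 969, 1752 and 161 without the filter. Fitted on the 2 lines compared, they were 25, 5, 397 and 1025. With the replicate block they were 364, 1084, 1330, 3079 and 118, and without the 4 libraries numbered 2 they were 0, 35, 211, 809 and 0 (861 and 1064 genes at an unadjusted p under 0.05 for the zeros, by edgeR). Leaving out single libraries gave 1 to 83, 20 to 447, 279 to 775, 796 to 2578 and 0 to 13.

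Of the 10 genes, 0, 2, 3, 5 and 0 were called. In the MeVa2.2 pair there were 4 with DESeq2, no filter or the block, and 0 (5 at an unadjusted p under 0.05, by edgeR) when only the 2 lines were fitted. Between parents there were 5 with DESeq2, no filter or the block, and 1 without the 4 libraries numbered 2. Between dOVA lines there were 3 when only the 2 lines were fitted, with Dkk2 and Lef1 lost, and 6 with DESeq2, which added Wnt5a. The difference of differences had 1, Sfrp1, with DESeq2, no filter or the block (adjusted p = 0.00869 with the block, edgeR). Leaving out single libraries gave 0 to 0, 0 to 3, 2 to 3, 3 to 7 and 0 to 0. In the MeVa2.2 pair, the block in edgeR added Wnt5a (adjusted p = 0.0265) and Apcdd1 (0.0209). Same-numbered libraries of that pair deviated together for replicates 2 and 3 (r = 0.64 and 0.521) and hardly for replicate 1 (0.082). Beside these and the pair given for the parents, the block changed no call of the 10 genes. The difference of differences cannot be fitted on 2 lines. DESeq2 size factors within edgeR changed no count of the 10.

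Directions turned where estimates were small or counts low. Without the 4 libraries numbered 2, Tcf7 in the MeVa2.1 pair was 0.41 on the log2 scale, and with the replicate block the Dkk3 difference of differences was -0.21. With single libraries left out, log2 values ran from -0.75 to 0.13 (Sfrp1), -0.99 to 0.28 (Wnt5a) and -0.26 to 0.17 (Tcf7) in the MeVa2.1 pair, and from -2.61 to 0.92 (Axin2) in the MeVa2.2 pair. For Dkk3 they ran from -1.23 to 0.75 between parents and -4.79 to 1.69 between dOVA lines. For the difference of differences they ran from -4.10 to 2.39 (Dkk3), -0.48 to 3.05 (Axin2), -0.69 to 0.65 (Lef1) and -0.15 to 0.85 (Apcdd1). The causes were not tested. Where leaving out a library left 2 in a line, the spread was taken from all lines together. Dkk1 and Sfrp2 had too few counts to pass the filter, and Dkk3 rested on 8 to 60 counts per line.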

Other observations

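Frzb, the gene of a further secreted decoy for Wnt, was picked out here after its values were seen. It had 0.371, 0 and 0.230 CPM in MeVa2.1.dOVA, against 2.97, 6.09 and 6.09 CPM in MeVa2.1, and no library of the dOVA line reached the parental range. The adjusted p was 0.0592 with edgeR, 0.0154 with the replicate block, 0.00108 without the filter on low counts and 1.11e-05 with DESeq2. In the MeVa2.2 pair Frzb had 0.378, 0.320 and 0.505 CPM in MeVa2.2.dOVA, against 1.48, 0.527 and 5.02 CPM in MeVa2.2 (adjusted p = 0.15 with edgeR, 0.0786 with the replicate block, 0.0444 without the filter and 0.0265 with DESeq2).

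The ligand gene Wnt16, also picked out after its values were seen, had 4, 35 and 12 counts in MeVa2.1 and 0 counts in all MeVa2.1.dOVA libraries. Against a floor of 3 counts, Wnt16 was at least 15.8-fold lower in MeVa2.1.dOVA. It did not pass the filter on low counts; without the filter, its adjusted p in edgeR was 0.0135. The other lines held 2 counts in all, in replicate 3 of MeVa2.2.dOVA.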
